A study of Ovis aries with 48 samples.

Results

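Epicardial fat was compared with perirenal fat in control sheep. The 8 libraries, out of 48 in the series, were the 4 epicardial and 4 perirenal libraries of the control females in the testosterone cohort, taken by the depot, treatment and cohort in the labels. Sheep 098, 131, 132 and 201 gave both depots, so each epicardial library had a perirenal partner from the same animal. Small RNA from homogenised adipose tissue was sequenced after preparation with a small RNA library kit. In the same cohort, 4 other females (48, 185, 233 and 255), called prenatal T sheep, were born to mothers injected with 100 mg of testosterone propionate in corn oil, intramuscularly, 2 times a week from gestational day 30 to 90. The labels state neither what the mothers of the control sheep received nor the age at which fat was taken. All animals were kept on a maintenance diet.

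Epicardial fat lies on the heart muscle and shares its blood supply, whereas perirenal fat surrounds the kidney and in newborn lambs is the main store of brown fat, which is replaced by white fat as they grow. MicroRNAs are short RNAs that guide the repression of messenger RNAs. The snoRNAs direct chemical modification of ribosomal and spliceosomal RNA, most of them cut from introns of host genes, and snRNAs form the core of the spliceosome. Fat depots are known to differ in the HOX genes they express, since these genes keep a record of position along the body axis.

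The 8 libraries held from 283463 to 1253005 reads assigned to microRNAs, snoRNAs, snRNAs or long non-coding RNAs (lncRNAs). Library numbers in the labels form an early set and a later set, and the labels do not say what the numbers stand for. All 4 epicardial libraries were of the later set, and 3 of the 4 perirenal libraries were early. Perirenal 098 was later and had the fewest reads. Sheep 098 was thus the only control animal with both depots in 1 set. Among the prenatal T sheep, 185 and 255 had both libraries in the early set, and 48 and 233 paired a later epicardial with an early perirenal library. Depot and set therefore cannot be told apart in sheep 131, 132 and 201. The tables list non-coding RNAs only, so the usual protein-coding markers of adipocytes were not analysed here. MIR193B, MIR365, MIR455, MIR182, MIR196A and MIR378, microRNAs tied to brown fat, were not analysed here.

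SnoRNAs made up 1.52% to 1.97% of the reads in epicardial libraries. They made up 2.42% in perirenal 098, against 0.336% to 0.459% in the 3 early perirenal libraries. Epicardial fat was thus above perirenal fat in 3 sheep and below it in sheep 098, where the difference was -0.892 percentage points. The mean difference of 0.821 percentage points had an exact two-sided permutation p of 0.143 (4 libraries against 4, 70 arrangements, adjusted p = 0.190 over 4 classes), as did the differences of microRNA share (-1.88 points) and lncRNA share (1.17 points). The permutations of shares did not use the pairing by sheep. In prenatal T sheep the 2 later epicardial libraries had 1.37% and 1.59%, and the 6 early libraries of both depots had 0.277% to 0.576%. Perirenal 132 held 10795 snRNA reads, 0.927% of its total, against 833 to 1887 in the other 7 libraries. The epicardial snRNA share averaged 0.244% and the perirenal one 0.354% (exact permutation p = 0.80, adjusted p = 0.80).

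**Figure D1:**
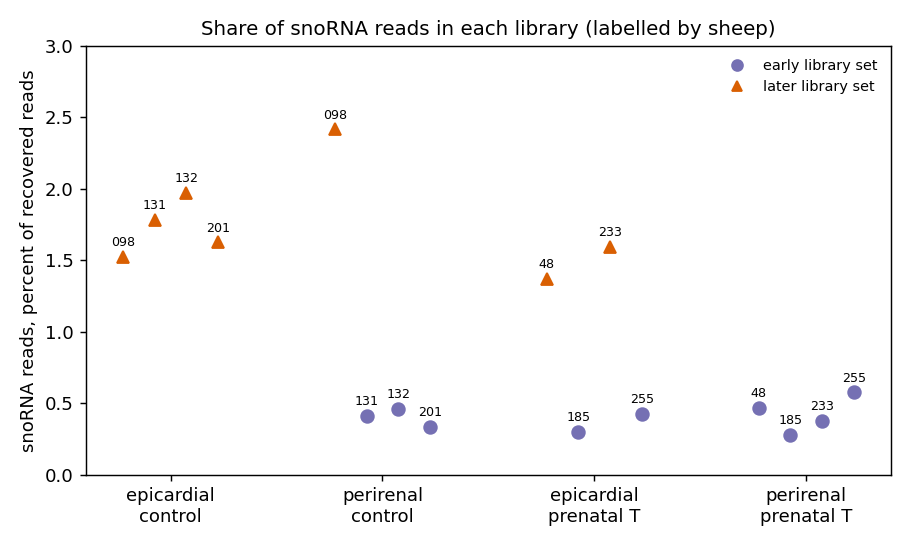
Share of snoRNA reads among all recovered reads (percent, y axis) in each epicardial and perirenal library of control and prenatal T sheep (x axis), 1 point per library with the sheep number above it. Triangles mark the later library set and circles the early one. Every later library lies at 1.37% or above and every early library at 0.576% or below, in both depots.

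For the comparison of depots, values were put on a common scale per RNA class and tested pair by pair, and a feature was called at an adjusted p under 0.05. Fold changes, pair differences and their medians below are log2 values, epicardial over perirenal, unless written as n-fold. Of 465 features tested, 82 were called (17.6%), 53 higher (11.4%) and 29 lower (6.24%) in epicardial fat. By class, 15 of 83 microRNAs (18.1%), 52 of 164 snoRNAs (31.7%) and 15 of 179 lncRNAs (8.38%) were called. None of 39 snRNAs was called by limma, with 1 at an unadjusted p under 0.05, 0 called by edgeR and 1 by DESeq2. These counts rested on few animals. In a fit of 3 pairs, a lost call does not show that the difference rested on the sheep left out. Without sheep 131 no feature was called at all (98 had an unadjusted p under 0.05), without sheep 132 there were 13 calls and without sheep 201 there were 11. Without sheep 098, whose pair lies in 1 library set, there were 174 (38 microRNAs, 83 snoRNAs and 53 lncRNAs). The split by direction moved with the scaling. MicroRNAs called higher and lower numbered 6 and 9, but 16 and 6 on CPM (each library scaled to the same number of reads in the class), 5 and 5 with TMM and 4 and 12 on the deposited scale. For snoRNAs the counts were 38 and 14, 30 and 29, 41 and 13, and 49 and 6. For lncRNAs they were 9 and 6, 4 and 12, 6 and 7, and 5 and 14. Of the 15 called microRNAs, 12 kept the call on CPM, 10 with TMM, 13 on the deposited scale, 15 with edgeR or DESeq2 and 8 with a term for the library set over the 32 libraries of the cohort. Of the 18 called snoRNAs named below, 17, 17 and 15 kept it under the 3 scalings, 9 with edgeR, 14 with DESeq2 and 5 with the set term. For the 11 called lncRNAs named the numbers were 9, 10, 9, 11, 11 and 1. Without sheep 131 none of the 44 kept its call. Without sheep 132 8 microRNAs, 4 snoRNAs and 0 lncRNAs did, and without sheep 201 10, 0 and 0.

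The largest differences among microRNAs were in the 2 that lie in HOX genes. MIR10A, which RefSeq places in HOXB3, was 19.4-fold lower in epicardial fat, and MIR10B, in HOXD4, was 25.3-fold lower. Their mature sequences are nearly identical, and how the authors' counting shared such reads is not stated in the labels. MIR10A had 331, 329, 247 and 156 normalised reads in epicardial fat of sheep 098, 131, 132 and 201, against 2197, 6694, 5852 and 6951 in their perirenal fat. Every epicardial library lay below every perirenal one, and perirenal 098 was the lowest of its group. The log2 fold change of MIR10A was -4.28 (SE 0.42, limma adjusted p = 0.000394).

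MIR10B had 873, 431, 543 and 370.3 normalised reads in epicardial fat of the same sheep, and 5147, 16351, 18011 and 20454 in perirenal fat. Again the groups did not overlap and perirenal 098 was lowest. Its log2 fold change was -4.66 (SE 0.50, adjusted p = 0.000394). Together they took 0.0775% to 0.176% of microRNA reads in epicardial libraries and 0.654% to 2.82% in perirenal ones. MIR196A, MIR196B and MIR615, the other HOX microRNAs of the list, were not analysed here. Both calls were lost without sheep 131 (-4.29 and -4.50, both adjusted p = 0.0607), though the fold changes stayed near those of all 4 sheep. They were kept without sheep 098 (-4.80 and -5.37, adjusted p = 1.19e-08 and 1.03e-09) or 132 (-4.21 and -4.56, adjusted p = 1.51e-14 and 1.77e-15). Without sheep 201 they were also kept (-3.84 and -4.25, adjusted p = 1.11e-13 and 1.80e-15). The reason for this spread of adjusted p was not tested.

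The HOX microRNAs were lower in epicardial fat within a library set too. In sheep 098, with both libraries later, the log2 difference was -2.73 for MIR10A and -2.56 for MIR10B. In prenatal T sheep 185 it was -3.32 and -3.59, and in sheep 255 it was -2.06 and -1.59, all 4 libraries being early. The pairs that crossed the sets ranged from -3.70 (sheep 48) to -5.47 (sheep 201) for MIR10A and from -4.61 (sheep 233) to -5.78 (sheep 201) for MIR10B. The pairs within 1 set thus had the smaller differences, with the same sign in all 8 sheep. With a term for the set, fitted over all 32 libraries of the cohort with sheep as a block, MIR10A was at -3.36 (adjusted p = 3.62e-08) and MIR10B at -3.44 (adjusted p = 1.78e-08).

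Set against the other depots of the 4 control sheep, on the CPM scale of microRNA reads, MIR10B was at 817 ± 365 in epicardial, 1311 ± 329.8 in visceral, 6920.0 ± 2838 in subcutaneous and 15077 ± 7374 in perirenal fat (SD, n = 4). Epicardial (439 to 1276) and visceral libraries (861 to 1639) overlapped, and so did subcutaneous (2999 to 9166) and perirenal ones (4581 to 21064). MIR10A was at 376 ± 95.6 in epicardial fat, 2543 ± 1061 in visceral, 5046 ± 2971 in subcutaneous and 5421 ± 2347 in perirenal fat. For MIR10A the epicardial libraries (265 to 484) lay below all 12 others, the next lowest being a visceral one at 1217.

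**Figure D2:**
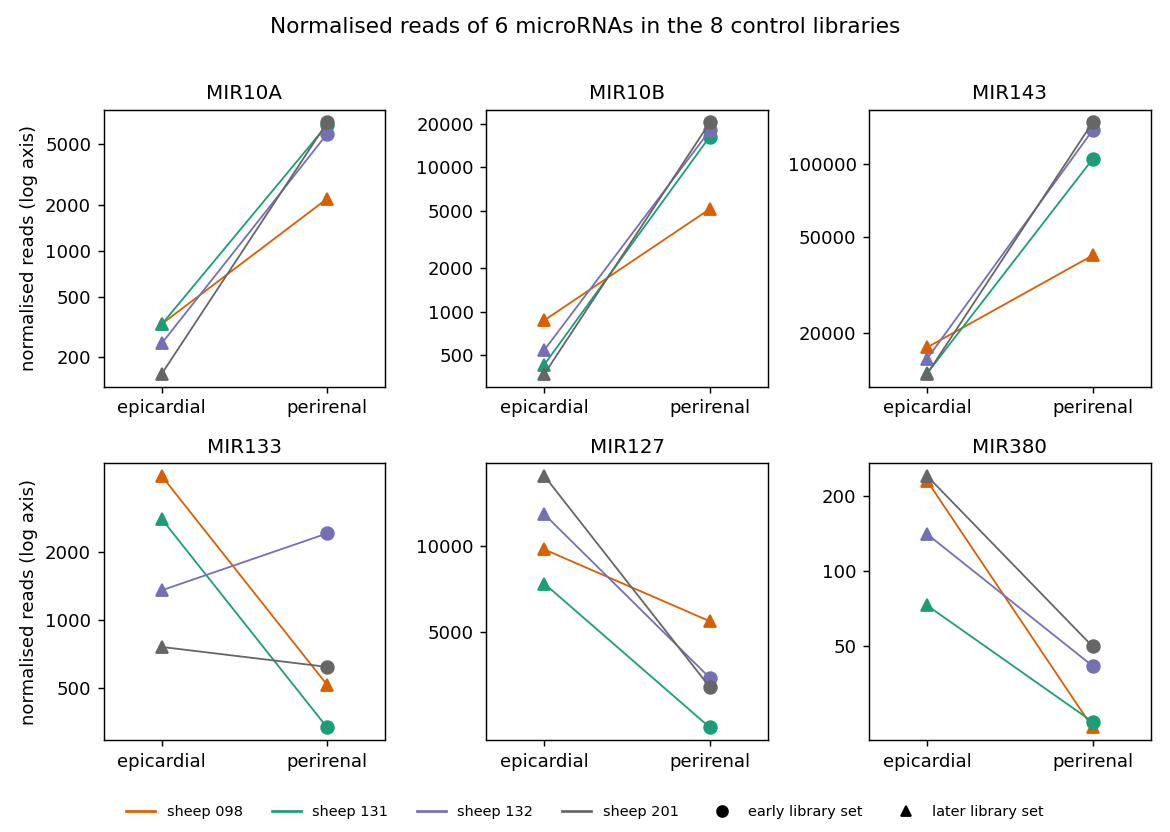
Normalised reads (y axis, logarithmic and different in each panel) of 6 microRNAs in epicardial and perirenal fat (x axis) of the 4 control sheep. Lines join the libraries of 1 sheep, colours mark the sheep, triangles the later and circles the early library set. MIR10A, MIR10B and MIR143 are lower and MIR127 and MIR380 higher in epicardial fat of every sheep, whereas the lines of MIR133 cross.

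The 7 other microRNAs called lower in epicardial fat were MIR143, MIRLET7F, MIR29B-1, MIR29B-2, MIR152, MIR30A and MIR191. MIR143 is a microRNA of smooth muscle that is also induced when adipocytes form. It had 17390 (sheep 098), 13581 (131), 15607 (132) and 13504 (201) normalised reads in epicardial fat and 41761, 104434, 137519 and 148119 in perirenal fat. The groups did not overlap, and the perirenal library of sheep 098 lay nearest to the epicardial ones. The fold change was -2.70 (SE 0.42, adjusted p = 0.00426, and 0.0843 without sheep 131). The difference was -1.26 in sheep 098 and -0.61 and -0.27 in prenatal T sheep 185 and 255, the pairs within a set, against -2.62 to -3.46 in the pairs that crossed the sets. The fold change was -1.5 with the set term over 32 libraries (adjusted p = 0.00313). With the set term and sheep block over the epicardial and perirenal libraries of both treatments alone, MIR143 was not called. It was called lower in that fit without sheep 255.

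MIR30A, a member of the miR-30 family that promotes adipocyte formation, differed by a similar amount in most pairs. It had 2756, 3340.3, 2816 and 2502 normalised reads in epicardial fat of sheep 098, 131, 132 and 201, against 5100.2, 5887, 6879 and 5832 in perirenal fat, with no overlap (fold change -1.05, SE 0.27, adjusted p = 0.0287). Its difference was -0.89 in sheep 098 and -1.17 in sheep 185. MIR191, abundant in many tissues, was alike in this respect: 6046 to 7290.2 against 12904 to 16006 normalised reads, a fold change of -1.04 (SE 0.28, adjusted p = 0.0353), -0.90 in sheep 098 and -1.25 in sheep 185. In sheep 255 the difference was -0.034 for MIR30A and 1.5 for MIR191. Both calls were lost on CPM, where MIR30A was at -0.50 (adjusted p = 0.266) and MIR191 at -0.49 (adjusted p = 0.277), and with TMM (adjusted p = 0.0618 and 0.0721). They were also lost with the set term over 32 libraries (adjusted p = 0.106 and 0.146) and without sheep 131 (0.0843 for both), 132 (0.199 and 0.178) or 201 (0.185 and 0.271).

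MIRLET7F, of the let-7 family of differentiated tissue, was different. It had 15262, 14723, 11205 and 8241 normalised reads in epicardial fat, and 17164 in perirenal 098 against 52458 to 59231 in the 3 early perirenal libraries. The fold change of -1.80 (SE 0.45, adjusted p = 0.0278) held a difference of -0.17 in sheep 098, -0.48 in sheep 185 and 1.61 in sheep 255. MIR152, which lies in COPZ2, did likewise, with a fold change of -1.31 (SE 0.36, adjusted p = 0.0353), a difference of -0.06 in sheep 098 and groups that overlapped. MIR29B-1 and MIR29B-2, gene copies with the same value in every library and so 1 measurement, were at -1.80 (SE 0.38, adjusted p = 0.0151). The miR-29 family is known to repress collagens and other matrix genes. MIRLET7F was not called with TMM or the set term, MIR152 was not called on CPM, with TMM, with the set term or without sheep 201, and the MIR29B copies were not called without sheep 132.

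By function, 3 of 13 tested pro-adipogenic microRNAs fell (MIR143, MIR152 and MIR30A) and 0 rose, with a median of -0.42. Of the anti-adipogenic list, microRNAs known to hold back fat cell formation, 0 of 7 were called, with a median of -0.08. Of 11 microRNAs of insulin and glucose metabolism 3 fell (MIR143 and both copies of MIR29B), with a median of -0.38, and the same copies of MIR29B were the 2 of 5 that fell in the fibrosis list, with a median of -1.03. In the let-7 list 1 of 7 fell, with a median of -0.45. No member of the MIR17 and MIR106B clusters (4 tested), the MIR23-27-24 clusters (3 tested) or the MIR99-125 clusters (2 tested) was called. Over all 83 microRNAs 10.8% fell, 7.23% rose and the median was 0.00. The pro-adipogenic count was 8 lower without sheep 098, 0 without sheep 131, 2 without sheep 132 and 1 without sheep 201. It was 1 higher and 1 lower on CPM, and 1 lower with TMM or the set term. The insulin count was 3 lower under each of those scalings and with the set term, and 0 without sheep 131 and 1 without sheep 132. The fibrosis count was 4 lower without sheep 098 and 0 without sheep 131 or 132. On the CPM scale the median of all microRNAs was 0.55, and the medians of the let-7, pro-adipogenic, anti-adipogenic and insulin lists turned positive (0.11, 0.14, 0.48 and 0.17).

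MicroRNAs of the DLK1-DIO3 cluster made up 5 of the 6 called higher in epicardial fat, and 34 of the 83 tested. This imprinted region is transcribed from the maternal chromosome as a long RNA that carries microRNAs and snoRNAs, and in sheep it is the site of the callipyge muscle trait. Of 57 listed members 53 were in the table and 34 passed the filter. Of these, 5 rose (MIR380, MIR323A, MIR127, MIR299 and MIR329B) and 0 fell, against 7.23% and 10.8% of all microRNAs tested. Their median was 0.75 and 29 of 34 had a positive fold change, against 42 of 83 over all microRNAs. Without a filter 3 of 50 rose, 0 fell and the median was 0.42, against 0.06 over all microRNAs. In 7 of the 34 every epicardial library lay above every perirenal one, against 9.64% of all microRNAs tested. The share of microRNA reads taken by the 53 was 1.19% to 3.77% in epicardial and 0.462% to 0.883% in perirenal libraries, with no overlap.

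MIR127, processed from the strand opposite to RTL1, was the most abundant of the 5. It had 9761, 7409, 12961 and 17652 normalised reads in epicardial fat of sheep 098, 131, 132 and 201, and 5472, 2324, 3465 and 3215 in perirenal fat. The groups did not overlap, and the smallest difference was in sheep 098 (0.83). The fold change was 1.72 (SE 0.33, adjusted p = 0.0121, and 0.0859 without sheep 131). MIR380 had 229, 72.6, 140.2 and 239.7 against 23.5, 24.8, 41.5 and 49.7 normalised reads, the largest fold change of the cluster at 2.18 (SE 0.35, adjusted p = 0.00426, and 0.0607 without sheep 131). Here the difference was largest in sheep 098 (3.23).

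MIR323A was higher in epicardial fat of all 8 sheep, by 0.47 to 3.44 in the control and 1.30 to 2.27 in the prenatal T animals. In control sheep it had 87.6, 82.2, 33.7 and 27.5 against 18.8, 6.7, 24 and 11.5 normalised reads, a fold change of 1.81 (SE 0.50, adjusted p = 0.0353). MIR299 (1.29, SE 0.36, adjusted p = 0.0376) and MIR329B (1.0, SE 0.25, adjusted p = 0.0278) differed less. MIR329B had 244 to 384 against 125 to 168 normalised reads, with differences of 0.81 to 1.19 in the 4 sheep. MIR329B and MIR299 were not called on the deposited scale (adjusted p = 0.0572 and 0.0608), with the set term (0.0625 and 0.219) or without sheep 131 (0.0843 and 0.139), 132 (0.204 and 0.113) or 201 (0.190 and 0.148). MIR323A was not called with TMM or without sheep 131.

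The cluster did not move as one. In sheep 098 the 34 members had a median difference of 0.58, and 22 of them were positive. MIR433, MIR154B, MIR370, MIR136, MIR485, MIR487A and MIR668, chosen after their values were seen, were higher in epicardial fat of the other 3 sheep and lower in that of sheep 098. The medians were 0.69, 0.48 and 1.04 in sheep 131, 132 and 201. In prenatal T sheep they were 0.25 (48), 0.25 (185), -0.11 (233) and -0.65 (255). The number of members that rose was 13 without sheep 098, where 1 fell, 0 without sheep 131 and 3 without sheep 132 or 201. With the set term over 32 libraries 3 rose, 1 fell and the median was 0.36. On CPM 12 of 32 rose, and the median was 1.26.

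**Figure D3:**
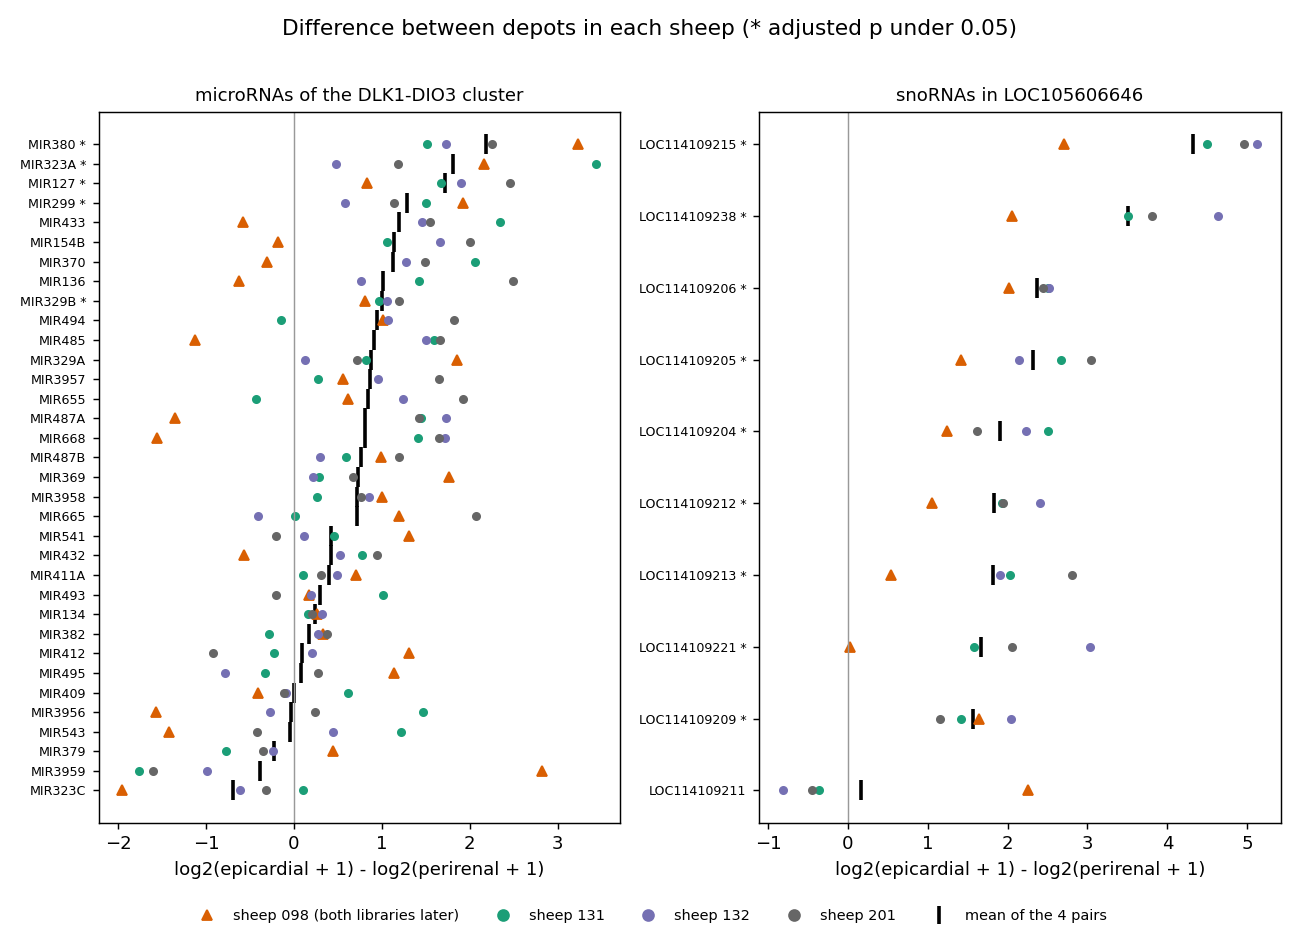
Difference between epicardial and perirenal fat on the log2(value + 1) scale (x axis) for the 34 tested microRNAs of the DLK1-DIO3 cluster (left) and the 10 tested snoRNAs in LOC105606646 (right), 1 row per RNA in order of the mean (y axis). Points are the 4 control sheep, with sheep 098 as a triangle, bars are the mean of the pairs and an asterisk marks a call. Sheep 098 lies at or above 0 for all 10 snoRNAs but on both sides of 0 for the microRNAs.

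SnoRNAs from the same region were also higher. RefSeq places 33 of the listed snoRNAs inside LOC105606646, a long gene that spans much of the cluster and is typed there as protein coding but counted by the authors as a lncRNA. Of these, 10 passed the filter, 9 rose and 0 fell, against 23.2% and 8.54% of all snoRNAs, and the median was 1.87 against 0.22. A snoRNA near 0 in perirenal fat could pass the filter through its epicardial libraries alone, so the filter favours members that are higher there. Without a filter 9 of 24 rose, 0 fell and the median was 0.48. Over all 433 snoRNAs then tested 44 rose, 15 fell and the median was -0.09. Groups did not overlap in 5 of the 10, against 16.5% of all snoRNAs higher without overlap. LOC114109215 was by far the most abundant, with 105.2, 46, 201.4 and 335 normalised reads in epicardial fat of sheep 098, 131, 132 and 201, and 15.3, 1.1, 4.8 and 9.9 in perirenal fat. The groups did not overlap, and perirenal 098 was the highest of its group. The log2 fold change was 4.32 (SE 0.51, adjusted p = 0.00357), with a log2 difference of 2.70 in sheep 098 and 0.89 in prenatal T sheep 185. It was not called without sheep 131 (adjusted p = 0.113) or 201 (adjusted p = 0.0627).

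The other 8 that rose were low, with at most 53.7 normalised reads in any library. LOC114109206 had 17.3, 16.9, 32.4 and 35.1 against 3.5, 2.2, 4.8 and 5.6 normalised reads (fold change 2.37, SE 0.34, adjusted p = 0.00784), and the 4 differences lay between 2.02 and 2.52. LOC114109238 had 10.3 to 23.9 in epicardial fat and was listed at 0 in the 3 early perirenal libraries, with 2.4 in perirenal 098 (fold change 3.50, SE 0.71). LOC114109205, LOC114109204, LOC114109212, LOC114109213, LOC114109221 and LOC114109209 had fold changes of 2.32, 1.90, 1.83, 1.82, 1.67 and 1.56. Without the sheep block LOC114109212 and LOC114109221 lost their calls (adjusted p = 0.0940 and 0.0914). LOC114109204, LOC114109213 and LOC114109221 were called neither by edgeR nor by DESeq2, LOC114109209 was not called by DESeq2, and LOC114109221 was not called on CPM. LOC114109211 was not called, at 0.16, and sheep 098 alone was positive (2.26). The median difference of the 10 was 1.53 in sheep 098 and 2.25 to 2.32 in the other 3. In prenatal T sheep it was 1.01 (185) and -0.32 (255) within a set. The number that rose was 9 without sheep 098, 0 without sheep 131, 3 without sheep 132 and 0 without sheep 201. With the set term over 32 libraries it was 3.

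LOC105606646 itself had 1341, 552, 1268 and 1675 normalised reads against 367, 271, 434 and 434, with no overlap (fold change 1.6, SE 0.36, adjusted p = 0.0489). It overlaps the small RNAs, so its reads and theirs cannot be told apart, and the call was lost on CPM (adjusted p = 0.0586), with TMM (adjusted p = 0.0737), on the deposited scale (adjusted p = 0.0791), with the set term over 32 libraries (1.14, adjusted p = 0.250) and without sheep 131, 132 or 201 (adjusted p = 0.157, 0.218 and 0.266).

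Markers of other cell types gave 2 calls, 1 of 2 tested for epithelium and mesothelium and 1 of 1 for smooth muscle. The count was 0 of 3 for mesenchyme and 0 of 2 for brown fat. It was 0 of 1 each for striated muscle, endothelium, lymphocytes and myeloid cells, kidney and neurons. Over all microRNAs tested 18.1% were called. In bulk tissue, fewer cells of a type and less RNA per cell cannot be told apart. MIR200B, a microRNA of epithelia and mesothelia, had 69.6, 67.7, 18.9 and 18.9 normalised reads in epicardial fat of sheep 098, 131, 132 and 201, and 9.4, 30.5, 4.6 and 8.0 in perirenal fat. Each sheep was higher in epicardial fat, by 1.13 to 2.76, but the groups overlapped through perirenal 131. The fold change was 1.71 (SE 0.41, adjusted p = 0.0271). The adjusted p was 0.0843 without sheep 131, 0.0578 without sheep 132 and 0.0541 without the sheep block. With the set term over 32 libraries MIR200B was not called either (1.70, adjusted p = 0.273). In prenatal T sheep the difference was 2.93, 3.72, 1.89 and -0.29 (48, 185, 233 and 255). Its relative MIR200C was at 0.01 (adjusted p = 0.998), with 12.1 to 20.6 normalised reads in epicardial and 10.6 to 32.9 in perirenal fat. The 3 epithelial microRNAs in the table summed to 0.0062% to 0.0135% of microRNA reads in epicardial and 0.0020% to 0.0041% in perirenal libraries. The other call was MIR143, described above, for smooth muscle.

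MIR133, a microRNA of striated and heart muscle, was the only measured marker of that tissue. It had 4330.2, 2798.5, 1353 and 761 normalised reads in epicardial fat of sheep 098, 131, 132 and 201, against 518, 336, 2414 and 621 in perirenal fat. Epicardial 098 and 131 were high, but perirenal 132 exceeded both of the other epicardial libraries, so that the groups overlapped. The fold change of 1.39 was not called (SE 0.64, adjusted p = 0.167), but the call turned on the processing. It was called higher by edgeR (1.40, adjusted p = 0.0422) and DESeq2 (1.43, adjusted p = 0.0307). It was also called on CPM (1.95, adjusted p = 0.00565), and without sheep 132 (2.11, adjusted p = 0.000292) or 201 (1.79, adjusted p = 0.00120). It was not called with TMM (1.55, adjusted p = 0.160), on the deposited scale (1.15, adjusted p = 0.210) or with the set term over 32 libraries (2.07, adjusted p = 0.198). Nor was it called without sheep 098 (0.83, adjusted p = 0.216) or 131 (0.80, adjusted p = 0.574). In prenatal T sheep MIR133 rose in epicardial fat (3.94, SE 0.71, adjusted p = 0.00981), with 15718, 9727, 1727 and 263 against 256, 206, 234 and 99.9 normalised reads on the scale of those 8 libraries. MIR133 took 0.130% to 0.633% of microRNA reads in epicardial and 0.0317% to 0.257% in perirenal control libraries. Its part in the differences of other RNAs was not tested.

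No other marker was called by limma on the common scale. MIR221 of endothelium (0.12), MIR150 of lymphocytes (0.21), MIR194 of kidney (-0.38), MIR218A of neurons and mesenchyme (0.35) and MIR199A and MIR22 of mesenchyme (-1.03 and -0.85) had an adjusted p from 0.0523 to 0.802, MIR22 being the lowest (0.0136 without the sheep block). MIR150 had 4428 to 6949 normalised reads in epicardial and 3115 to 7072 in perirenal fat, and on the CPM scale it was at 6701 to 8144 against 3208 to 6294, without overlap. MIR194 was at 79.4 to 107.8 against 108.2 to 131.6 normalised reads, so that the kidney marker was higher in perirenal fat of all 4 sheep, without overlap, but the difference was not called. On CPM its fold change was 0.17. MIR30B and MIR30C, linked to brown fat, were at 0.56 and -0.25. MIR30B was called higher on CPM (adjusted p = 0.0425) and MIR30C lower without sheep 098 (adjusted p = 0.0337). MIR126, MIR142, MIR155, MIR223, MIR451, MIR1 and MIR208A were not analysed here.

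Apart from the cluster, 29 of 154 snoRNAs tested were called higher and 14 lower in epicardial fat, against 23.2% and 8.54% of all snoRNAs. The split turned with the scaling and the tool, at 22 and 29 of 162 on CPM and 3 and 6 of 154 with edgeR. It was 32 and 13 of 162 with TMM, 40 and 6 of 153 on the deposited scale and 26 and 10 of 154 with DESeq2. LOC114110519, within C23H18orf32 per RefSeq, was the furthest apart, with 124.7, 78.9, 243.3 and 137.4 normalised reads in epicardial fat of sheep 098, 131, 132 and 201. Perirenal fat had 74.3 in sheep 098 and 3.2, 1.9 and 0 in the others. The perirenal library of the later set was close to the epicardial ones, and the 3 early ones were near 0. The fold change was 4.62 (SE 0.94, adjusted p = 0.0165), but the difference was 0.74 in sheep 098 and -0.96 and -1.33 in sheep 185 and 255.

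The next snoRNAs showed the same split. LOC114110200, in the lncRNA LOC114110053 near SLC3A2, had 74.7 to 111.8 normalised reads in epicardial fat, 95.5 in perirenal 098 and 0 to 5.8 in the early perirenal libraries (fold change 3.93, SE 0.90, adjusted p = 0.0209, difference 0.11 in sheep 098). LOC114118106, in the ribosomal protein gene RPL13A, had 46 to 197.2 against 24.8 in perirenal 098 and 1.1 to 4.8 in the others (3.83, SE 0.62, adjusted p = 0.0114). LOC114113431, in UBAP2, had 15.0 to 34.1 against 13.0 in perirenal 098 and 0 in the 3 others (3.79, SE 0.71, adjusted p = 0.0165). These last 2 kept a positive difference in sheep 098 (1.43 and 0.98) and sheep 185 (2.43 and 1.77), and a negative one in sheep 255 (-2.91 and -1.65). LOC114110519, LOC114110200 and LOC114113431 were not called by edgeR.

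SnoRNAs that fell included LOC114113393 in EEF1B2, a translation elongation factor gene. It had 45.5, 39.5, 35.0 and 33.9 normalised reads in epicardial fat of sheep 098, 131, 132 and 201, against 166 ± 63.4 in perirenal fat (SD, n = 4), where the highest was 239.5 in sheep 201. The groups did not overlap, and within a set the difference was -1.34 in sheep 098 and -2.03 in sheep 185 (fold change -2.01, SE 0.40, adjusted p = 0.0165). LOC114115466 had 0.6 to 3.3 normalised reads against 5.6 to 58.9 (fold change -2.52, SE 0.66, adjusted p = 0.0279), with the highest value in perirenal 132. Near-identical snoRNAs in TEX14, grouped after their values were seen, fell in 5 of 7 cases, against 8.54% of all snoRNAs tested, with a median of -1.84 over the sheep and -0.11 in sheep 098. LOC114117128, LOC114117129 and LOC114117131 stand for them, at -1.94, -1.88 and -1.85, and the counting could split their reads. No snoRNA of TEX14 was called on the deposited scale, by edgeR, with the set term over 32 libraries, or without sheep 131, 132 or 201. Of 26 snoRNAs in ribosomal protein genes, also grouped afterwards, 7 rose and 1 fell, near the 23.2% and 8.54% of all snoRNAs, and the median of 0.21 was near that of all snoRNAs, 0.22.

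Among lncRNAs 9 rose (5.03% of those tested) and 6 fell (3.35%), with LOC106990385 the furthest higher. It had 1311, 835, 1259 and 1014 normalised reads in epicardial fat of sheep 098, 131, 132 and 201, and 507, 31.4, 38.9 and 38.1 in perirenal fat. Perirenal 098 stood between the epicardial libraries and the 3 early perirenal ones (fold change 3.93, SE 0.68, adjusted p = 0.0360), and the difference was 1.37 in sheep 098 and 0.30 in sheep 185. With the set term over 32 libraries the fold change was 0.53 (adjusted p = 0.467). LOC105607806, LOC101116687, LOC105616344 and LOC114109082 followed, at 3.19, 2.85, 2.65 and 2.50, with differences of 1.61, 0.87, 0.65 and 1.29 in sheep 098. LOC101116687 and LOC105616344 had 188 and 175 normalised reads in perirenal 098, against 14.2 to 26.6 in the early perirenal libraries.

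LOC114115026, whose nearest coding gene is ELL2, was the furthest lower. It was listed at 1.0 in epicardial 098 and 0 in the other epicardial libraries, against 4.0, 21, 33.7 and 45.2 in perirenal fat (fold change -4.11, SE 0.78, adjusted p = 0.0364). It was lower in epicardial fat of all 8 sheep, by 1.32 in sheep 098, 1.74 in sheep 185 and 3.63 in sheep 255. LOC114111513, LOC114115610, LOC105612888 and LOC105616860 were at -3.37, -2.71, -2.57 and -2.03, and LOC114115610 and LOC105616860 were not called without the sheep block (adjusted p = 0.0691 and 0.0560). Each of these 4 had a difference of -1.47 to -1.22 in sheep 098 and of 2.82 to 4.02, the opposite sign, in sheep 255. None of the 10 named lncRNAs kept its call without sheep 131, 132 or 201. LOC105616344 was not called on CPM or the deposited scale, and LOC101116687, LOC105616344, LOC105616860, LOC114111513, LOC114115026 and LOC114115610 were not called with a pseudocount of 5.

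The pairs of each sheep were also compared across features. Pair differences of the 164 snoRNAs correlated at 0.823 to 0.888 among the 5 pairs that crossed the sets in control and prenatal T sheep (Pearson's r across features, 10 comparisons). Between a crossing pair and a pair within a set r was -0.299 to 0.299 (15 comparisons). For microRNAs the ranges were 0.660 to 0.914 and -0.150 to 0.811, and for lncRNAs 0.622 to 0.781 and -0.431 to 0.602. Among the 3 pairs within a set r was -0.320 to 0.093 for snoRNAs, -0.172 to 0.684 for microRNAs and -0.364 to 0.588 for lncRNAs (3 comparisons). The ranges of snoRNAs and lncRNAs did not overlap between crossing pairs and pairs within a set, and those of microRNAs did. For snRNAs r was -0.143 to 0.560 among crossing pairs and 0.023 to 0.335 within a set. Features of 1 library share its depth and scaling and are not independent replicates.

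The called features were chosen on pairs 098, 131, 132 and 201, so their size in those pairs is a description. Signed by the direction of the call, the 52 snoRNAs had a median difference of 0.62 in sheep 098 and of 2.49, 3.50 and 2.78 in sheep 131, 132 and 201. In the prenatal T sheep, which played no part in the calls, it was 2.86 (48) and 1.88 (233) across the sets and 0.35 (185) and -0.45 (255) within a set. For the 15 microRNAs it was 0.90 in sheep 098 against 1.51 to 2.02, and in prenatal T sheep 1.59 and 1.25 across the sets and 0.69 (185) and -0.29 (255) within one. The sign was that of the call for 15 of 15 microRNAs, 33 of 52 snoRNAs and 14 of 15 lncRNAs in sheep 185, and for 7, 20 and 2 in sheep 255. Perirenal 255 stood apart from the other perirenal libraries in several lists: DLK1-DIO3 microRNAs took 4.67% of its microRNA reads, against 0.586% to 1.62% in the other 3. The part of the library set in these differences cannot be told apart from that of the depot in pairs that cross the sets.

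**Figure D4:**
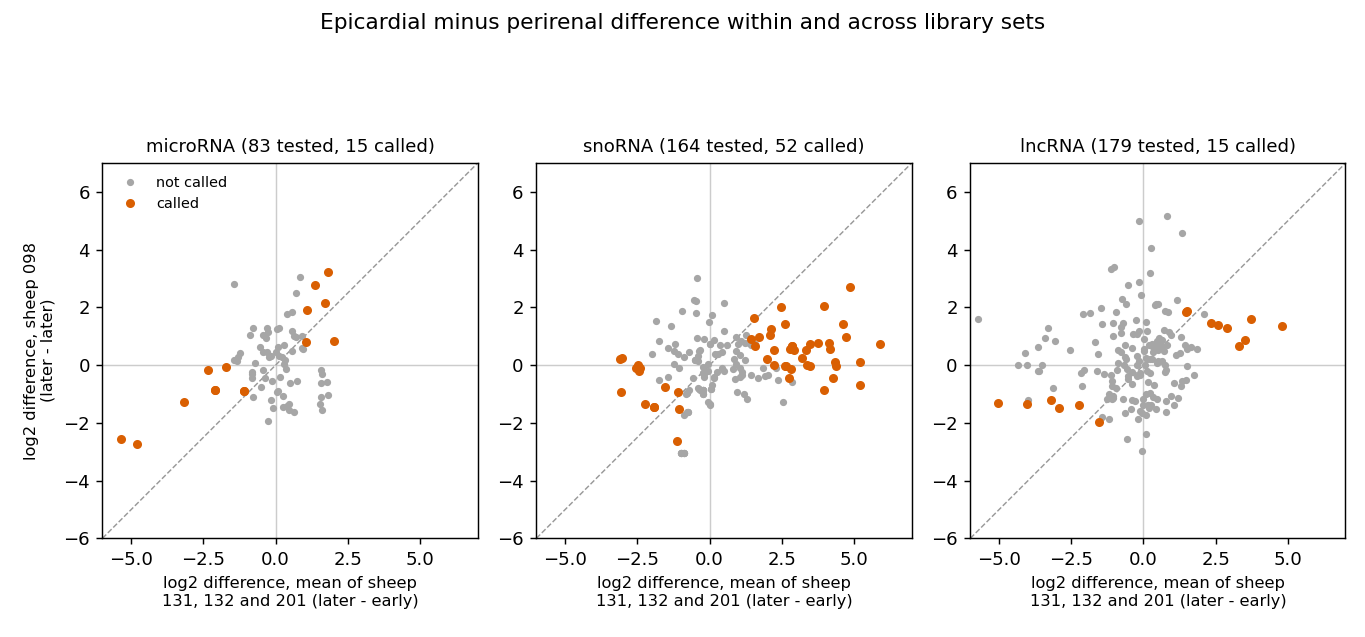
Log2 difference between epicardial and perirenal fat in sheep 098, whose libraries are both of the later set (y axis), against the mean of sheep 131, 132 and 201, which pair a later with an early library (x axis), for all tested microRNAs, snoRNAs and lncRNAs. Orange points are called features, grey points the others, and the dashed line marks equal differences. Signed by the direction of the call, the 52 called snoRNAs have a median of 0.62 in sheep 098, and 40 of them keep the sign there. MIR10A and MIR10B, the lowest orange points of the microRNA panel, lie at -2.73 and -2.56.

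With a term for the library set the counts changed. Over the 32 libraries of the cohort, with sheep as a block, 10 microRNAs (12%), 7 snoRNAs (4.27%) and 2 lncRNAs (1.12%) were called for epicardial against perirenal control fat, and 14 of the 19 were also among the 82. The term was estimated from groups of the other depots as well. The 16 epicardial and perirenal libraries with the set term and sheep block, a fit chosen after the data were seen, gave 3 calls, all shared with the 82. Without sheep 255 there were 33, of which 13 were shared.

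Prenatal T sheep, as other animals with other libraries, were tested in the same way. Of 456 features 4 were called (0.877%), 2 higher and 2 lower (0.439% each), and all were among the 85 microRNAs tested (4.71%). MIR10A (-3.39, SE 0.46, adjusted p = 0.00353) and MIR10B (-3.65, SE 0.58, adjusted p = 0.00554) fell, and MIR133 and MIR323A (1.72, adjusted p = 0.0370) rose. No snoRNA, snRNA or lncRNA was called by limma there, with 26, 0 and 14 at an unadjusted p under 0.05. Without sheep 255, whose 2 libraries are early, 54 features were called, and without sheep 185 there were 2. The contrast of depots did not differ by treatment for any of 468 features in the test of the interaction (limma, 0 called and 26 at an unadjusted p under 0.05). The interaction for MIR10A was 0.85 (SE 0.60, adjusted p = 0.662) and for MIR133 it was 2.51 (SE 1.13, adjusted p = 0.649), prenatal T minus control. With 4 sheep a group and sets spread unevenly, a miss of the threshold does not show that the depots differed alike in both treatments.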

How the data were processed

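The values used are a signal per feature that the authors deposited, reads over a library's size factor, with 1 table for each of 4 RNA classes. The submitters' processing notes name cutadapt 3.2, STAR 2.6.0c and featureCounts 1.6.1, and no build of the genome is named in them. Whole read counts were recovered from the deposited values (100% of 41529 values above 0 whole within 0.0001). The deposited factors equalled median-ratio factors set within each depot (SD of the log2 difference 0), so the 8 columns were rescaled by the median ratio over these 8 libraries in each class. Features with a mean of at least 5 over the 8 libraries were put on a log2(value + 1) scale, which shrinks the fold changes of low features, and tested in limma 3.58.1 (R 4.3.3), using a trend, sheep as a block and Benjamini-Hochberg adjustment within the class. Libraries held 283463 to 1253005 reads, and perirenal 098, with the fewest reads in all, held 6849 snoRNA reads against 4165 to 5346 in the other perirenal libraries.

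Both depots came from the same animals per the labels, so sheep pairs the libraries. Deviations from the depot means correlated between the 2 libraries of a sheep at -0.145, 0.135, -0.053 and 0.078 (465 features, sheep 098, 131, 132 and 201). No 2 libraries of a depot agreed within sampling noise (chi-square per degree of freedom 28.5 to 407). Alternatives were edgeR 4.0.16, DESeq2 1.42.0, CPM, TMM and the deposited scale, other filters and pseudocounts, set terms, no block and each sheep left out.

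The members and lists were chosen with earlier results of these data known. Named features are all measured HOX and cell type markers, called list members (at most 8 a list), the called features with 1 sign in all 4 sheep and the largest fold changes (10 microRNAs, 5 of other classes, per direction) and snoRNAs in LOC105606646. RefSeq (ARS-UI_Ramb_v3.0) was used for names and hosts only, and matched 105 of 105 microRNAs, 621 of 694 snoRNAs, 1010 of 1148 snRNAs and 1372 of 2973 lncRNAs.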

Additional observations from a re-analysis of the deposited data

Results flagged for a closer look

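Of 120 groups of 4 libraries examined, 20 held a library whose gap to the nearest other exceeded Dixon's critical share of the group's range. Chance alone marks about 1 in 20 independent groups. These groups were mostly named features of the same libraries and so not independent, and the count is no test against that share. The MIR29B copies are 1 measurement, and where the other libraries were at 0 any value above 0 was marked. Perirenal 098 was the library set apart in 16 of the 20. It had 283463 recovered reads, against 1164153 to 1253005 in the other perirenal libraries, and a snoRNA share of 2.42% against 0.336% to 0.459%.

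In normalised reads, perirenal 098 was lowest for MIRLET7F (17164 against 52458 to 59230.5), MIR152 (503 against 1466 to 1595) and both MIR29B-1 and MIR29B-2 (80.0 against 139 to 145). It was highest for MIR200C (32.9 against 10.6 to 12.9). Among snoRNAs it was highest for LOC114109221 (22.4), LOC114109238 (2.36, the others at 0), LOC114110519 (74.3), LOC114110200 (95.5), LOC114118106 (24.8) and LOC114113431 (13.0, the others at 0). Among lncRNAs it was highest for LOC106990385 (507), LOC101116687 (188) and LOC105616344 (175). Perirenal 098 was also the only perirenal control library of the later set, and the part of set or depth in these values was not tested.

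Perirenal 132 was highest for MIR133 (2414 against 336 to 621) and LOC114115466 (58.9 against 5.64 to 10.8). In epicardial fat, sheep 131 was highest for MIR150 (6949 against 4428 to 4797), and sheep 098 for LOC114115026 (1.01, the others at 0).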

How the results depend on the processing

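Leaving out each sheep gave 0 to 174 calls in all, 0 to 38 for microRNAs, 0 to 83 for snoRNAs and 0 to 53 for lncRNAs, and 2 to 54 in prenatal T sheep. The median of the snoRNAs in LOC105606646 lay between 1.76 and 2.25. Without the sheep block there were 97 calls against 82, of which 76 were shared. Of the 44 called features named, 39 kept their call without the block. For snoRNAs, against 52 calls, a filter at a mean of 20 gave 26, edgeR 15, the set term without block 1, and with block over 32 libraries 7. For lncRNAs, against 15, a pseudocount of 5 gave 5, edgeR 26, DESeq2 30, and the set terms 0 and 2. DESeq2 called 1 snRNA. Over all classes the set terms gave 21 and 19. The deposited scale gave 2 calls in prenatal T sheep. With control and prenatal T sheep in 1 fit with the set term and block, chosen after the data were seen, 2 microRNAs, 1 snoRNA and 0 lncRNAs were called, 3 in all, and without sheep 255 there were 5 snoRNAs, 8 lncRNAs and 33 in all.

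These 2 fits moved the HOX median from -4.47 to -2.75 and -3.05, the DLK1-DIO3 median from 0.75 to -0.027 and 0.47, and that of the snoRNAs in LOC105606646 from 1.87 to 0.86 and 1.23. The DLK1-DIO3 median was 1.26 on CPM, 0.42 without a filter, and 0.50 and 0.36 with the set terms. The snoRNA median was 1.18 with a pseudocount of 5, 0.48 without a filter, 4.32 at a mean of 20, where 1 member was left, and 1.37 with the set term over 32 libraries. The scaling moved the median of all tested features, to 0.55 (microRNAs), -0.21 (snoRNAs) and -0.11 (lncRNAs) on CPM, to 0.16, 0.24 and -0.15 with TMM and to -0.24, 0.42 and -0.43 as deposited.

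Of 44 called features named, none turned sign under CPM, TMM, the deposited scale, edgeR, DESeq2 or any sheep left out. Under the set term without block LOC114109221 was at -0.52, LOC114110200 at -0.0054 and LOC114115610 at 0.20. In the fit of both treatments the turned values were MIRLET7F 0.21, LOC114109221 -0.14, LOC114110519 -0.53, LOC114110200 -0.99, LOC105607806 -0.076, LOC101116687 -0.30, LOC105616344 -0.096, LOC114111513 0.082, LOC114115610 0.74, LOC105612888 0.28 and LOC105616860 0.37. Without sheep 255 they were LOC114109221 -1.12, LOC114110519 -0.16 and LOC114110200 -0.48. Uncalled features near 0 turned more often. On the deposited scale MIR221 was at -0.13, MIR150 at -0.028 and MIR200C at -0.21. On CPM MIR194 was at 0.17, MIR30C at 0.31 and LOC114109211 at -0.21. With a pseudocount of 5 MIR200C was at -0.0006 and LOC114109211 at -0.059, and the latter was at -0.32 with edgeR and -0.11 with DESeq2. With the set term and no block MIR150 was at -0.47, MIR200C at -1.03, MIR30C at 0.40 and MIR199A at 0.15, and with the block over 32 libraries MIR200C was at -0.22 and MIR30C at 0.26. In the fit of both treatments MIR200C was at -0.60 and MIR30C at 0.56, and without sheep 255 MIR150 was at -0.97, MIR200C at -1.12, MIR30C at 0.33 and MIR199A at 0.0835. Over the left-out sheep MIR221 ranged from -0.012 to 0.26, MIR150 from -0.057 to 0.48, MIR200C from -0.25 to 0.46 and LOC114109211 from -0.50 to 0.50, and the difference of snRNA share from -0.255 to 0.0915 percentage points. The cause was not tested in any of these. Perirenal 098 had the fewest microRNA and lncRNA reads of the 8 libraries (238797 and 36815), and the part of depth in its values was not tested.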

Other observations

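LOC114109250, a snoRNA within SNRPN, a gene of the imprinted Prader-Willi region, was called higher in epicardial fat (fold change 1.34, SE 0.43, limma adjusted p = 0.0423). It was chosen after its values were seen, and 23.2% of all snoRNAs tested were called higher. It differed by 0.66 in sheep 098, 1.05 in prenatal T sheep 185 and 1.20 in sheep 255, the pairs within a library set.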
